A study of Mus musculus with 12 samples.

Results

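The Hox genes of endothelial cells were followed in mesentery and epididymal fat. Members were the rows of the deposited table whose symbol is Hoxa, Hoxb, Hoxc or Hoxd followed by a number, whatever their transcript class. This rule gave 30 genes of 27825, by symbol alone, with no expression value in the rule. The set held 9 Hoxa genes on chromosome 6, 9 Hoxb genes on chromosome 11, 6 Hoxc genes on chromosome 15 and 6 Hoxd genes on chromosome 2. Antisense genes of other names were not members, and other Hox genes were not analysed here.

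Bulk RNA-seq was made from fluorescent cells sorted out of digested tissue, with 3 libraries in each of 4 groups: mesentery (the fold of peritoneum that holds gut vessels) or epididymal adipose tissue, from mice fed either normal chow (NC) or a high fat diet (HFD). All mice, chow controls included, were male and carried ROSA26-eYFP+/+ and Cdh5-CreERT2+, so that tamoxifen switched on a yellow fluorescent reporter in cells with Cdh5 promoter activity. Tamoxifen was fed to every group for 2 weeks, beginning at an age of 6 weeks. Chow with 5.8% fat or HFD with 60% fat was then given from week 8 on, for 12 to 13 weeks. Each library pooled the tissue of 6 mice, and 1 µg/ml actinomycin D, which blocks transcription, was present during isolation. The labels number 3 libraries per group by letter but speak of 2 independent replicates, so p-values measure the spread between these libraries, which may be partly technical.

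Hox genes encode homeodomain transcription factors. They lie in clusters whose gene order follows the order of expression along the body axis, and genes at matching places in different clusters form a paralog group. Low-numbered groups are active from the hindbrain back, central groups in the trunk and high-numbered groups towards the tail. Adult connective tissue and vessel cells keep part of the Hox code of the region they came from. The proteins bind DNA together with Pbx and Meis cofactors. Retinoic acid induces many Hox genes in the embryo, while Trithorax and Polycomb proteins keep them on or off.

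The results turn on Hoxb and Hoxc paralogs of groups 4, 5 and 6, whose homeobox sequences are alike. The group 6 pair is shown as the example, since Hoxc6 had the largest tissue difference on chow of the tested members. Each stretch is 60 bases of the homeobox that include the recognition helix, read from the GENCODE vM21 transcripts of build GRCm38. They are printed 5′ to 3′ on the coding strand, with capitals where the bases of the pair differ.
Hoxb6: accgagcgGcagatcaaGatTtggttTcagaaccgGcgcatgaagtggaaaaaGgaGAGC
Hoxc6: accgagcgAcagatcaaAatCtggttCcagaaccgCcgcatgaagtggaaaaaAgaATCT

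The 2 stretches differed at 10 bases. Over the 180 bases of the homeobox the identity between Hoxb6 and Hoxc6 was 82.78%. Of all 435 pairs of the 30 members, 2 pairs from different clusters shared a run of 50 or more bases, Hoxa6 with Hoxb4 and Hoxb9 with Hoxc9, and 0 shared 75 or more. Within clusters, Hoxd3 with Hoxd4 and Hoxc5 with Hoxc10 shared runs of 150 bases or more, and their annotated exons overlap. Exon bases shared on the same strand came to 62.3% of Hoxd3 and 52.3% of Hoxd4, so counts of these 2 genes are uncertain. The use of strand is not given in the sources used here. Hoxb3 had 52.9% of its exon bases opposite another gene, Hoxb2 27.3%, Hoxa3 25.4% and Hoxa7 20.4%, so without strand, reads from those bases could belong to either gene.

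Recovered reads per library came to between 8348897 and 25397963, of which 2476 to 9275 fell on Hox genes. The sort carried endothelial RNA: all 12 pan-endothelial markers were present in each group, with a summed level of 126714 to 200171 normalized counts in the 6 mesenteric libraries and 48278 to 105727 in the 6 epididymal ones. Other cell types were present too, and differed between the tissues. Fibroblast markers (8 genes) summed to 4452 to 10012 in mesentery and 18072 to 56292 in epididymal fat. Macrophage markers (6 genes) summed to 219.5 to 5089 in mesentery, 1741 to 12577 in epididymal fat on chow and 28392 to 74191 on HFD. Lymphatic endothelial markers (7 genes) summed to 1332 to 13032 and 11830.5 to 37637 in the 2 tissues, smooth muscle and pericyte markers (7 genes) to 1287 to 3740 and 5866 to 22041. Adipocyte markers (6 genes) summed to 3899 to 8618 in mesentery, 63085 to 85648 in epididymal fat on chow and 3938 to 13910 on HFD. Pancreatic acinar markers (7 genes) summed to 25800 to 174418 in mesentery and 183 to 552 in epididymal fat. Capillary endothelial markers (6 genes) summed to 97384 to 156369 in mesentery and 149012 to 297213 in epididymal fat. Of the pan-endothelial markers 1 was higher and 7 were lower in epididymal fat on chow, and 1 and 8 on HFD. Of all genes tested 7.32% were higher and 5.47% lower on chow, and 4.91% and 3.43% on HFD. Markers at 0 in every library of a group included Wt1 (mesothelial) and Cd8a (lymphocyte) in mesentery on chow and Prss2 (acinar) in epididymal fat on HFD.

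Per kilobase of exon (lengths from GENCODE vM21), which allows genes to be set side by side, Hoxb7 had the highest mean of all members in each group. Its mean was 466 normalized counts per kilobase in mesentery on chow, 462 on HFD, 464 (SD 71.6) in epididymal fat on chow and 345 (SD 144) on HFD. Hoxa7 was within that spread in epididymal fat, at 454 (SD 96.2) on chow and 337 (SD 144) on HFD. The order there rests on the exon lengths, 2.876 kb for Hoxa7 and 1.544 kb for Hoxb7. Before division by length, Hoxa7 had the higher epididymal means, 1304 against 717 on chow and 968 against 532 on HFD. Hoxd8, with means of 159 to 241 per kilobase, ranked from 2 to 4. Central genes (groups 4 to 8, 15 members) made up 84.4% ± 4.44 (SD, n = 3) of the summed level per kilobase in mesentery on chow, and 84.9% ± 1.42, 84.5% ± 1.88 and 81.4% ± 5.21 in the other groups. Anterior genes (groups 1 to 3, 7 members) held 3.85 to 5.91% and posterior genes (groups 9 to 13, 8 members) 9.21 to 13.8% as group means. Of groups 11 to 13 only Hoxd11 was in the table, with a highest value of 11.1 normalized counts.

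The clusters divided this sum differently in the 2 tissues. Hoxb genes held 60.2% ± 1.70 of the summed level per kilobase in mesentery on chow and 54.4% ± 2.71 on HFD, against 34.3% ± 4.03 and 35.9% ± 1.53 in epididymal fat (SD, n = 3 each). Hoxc genes held 2.3% ± 2.00 and 2.50% ± 1.71 in mesentery, against 16.6% ± 2.83 and 12.4% ± 0.987 in epididymal fat. Hoxa genes held 20.3% ± 5.59 and 25.6% ± 1.73 in mesentery and 33.0% ± 3.83 and 33.4% ± 1.41 in epididymal fat. Hoxd genes held 16.1 to 18.3% as group means. The 6 mesenteric libraries lay between 0.748 and 4.58% Hoxc and the 6 epididymal ones between 11.4 and 19.6%, without overlap, and the Hoxb shares did not overlap either. Shares are parts of a whole, so a rise of one lowers the others. Summed normalized counts of Hoxb genes averaged 2241 in mesentery and 1680 in epididymal fat on chow, and 1884 and 1152 on HFD. Those of Hoxa genes averaged 910 and 2071 on chow and 1061 and 1378 on HFD, and of Hoxc genes 103 and 1144, and 103 and 533.

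**Figure D1:**
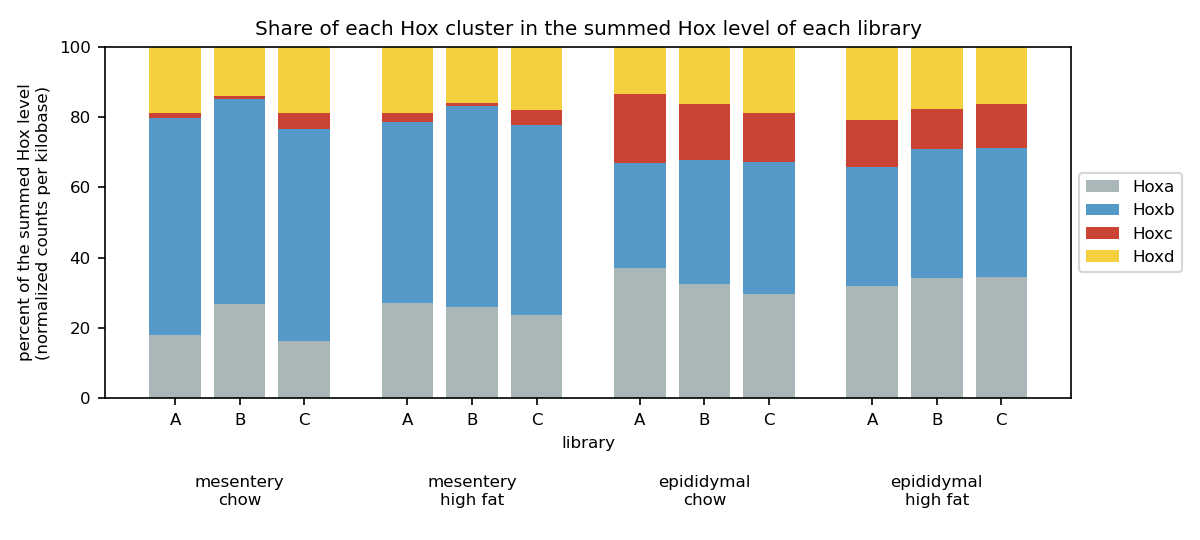
Percent of the summed Hox level (normalized counts per kilobase of exon) held by each cluster, 1 bar per library, for 3 libraries in each of 4 groups. Hoxc genes hold 0.748 to 4.58% in the mesenteric bars and 11.4 to 19.6% in the epididymal bars.

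The tissues were compared on each diet with limma on log2(normalized count + 1), with Benjamini-Hochberg adjustment over 22238 genes with a mean of at least 10. Log2 differences on this scale understate the change of low genes. Of the 30 members 26 were tested. Hoxb1, Hoxc10, Hoxd3 and Hoxd11 fell under the filter, with no library above 23.9 normalized counts. On chow 9 of the 26 differed: 7 were higher in epididymal fat (Hoxa7, Hoxc4, Hoxc5, Hoxc6, Hoxc8, Hoxc9 and Hoxd9) and 2 were lower (Hoxb4 and Hoxb6). Of all genes tested 12.8% passed in this comparison, 7.32% higher and 5.47% lower. On HFD 3 of the 26 differed, Hoxc5 higher and Hoxb5 and Hoxb6 lower, where 8.34% of all genes passed, 4.91% higher and 3.43% lower. The median log2 difference of the members was 0.44 on chow and 0.32 on HFD, beside -0.08 and 0.06 over all genes. In bulk samples, fewer cells of a type and less RNA per cell cannot be told apart.

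Among the 26 tested members, libraries of the 2 tissues did not overlap on chow for 9 that were higher in epididymal fat and 4 that were lower, where 16% and 12.7% of all genes did so. On HFD this held for 7 tested members higher and 6 lower, where 15.1% and 11.2% of all genes did so.

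Both counts moved with the libraries used. On chow, 5 members passed without mesenteric replicate A, 3 without epididymal replicate A and 5 without epididymal replicate B, and edgeR on recovered reads called 5. On HFD 1 passed without mesenteric replicate B, 1 without epididymal replicate C and 1 by edgeR, against 9 by DESeq2. A comparison of the tissues over both diets, the mean of the 2 tissue differences in the same fit, was therefore added after the data were seen, and uses 6 libraries a side. It called 13 of 26 members, with 9 higher in epididymal fat and 4 lower, beside 21.8% of all genes (12.8% higher and 9.05% lower). Tested members whose 6 libraries a side did not overlap numbered 6 higher (Hoxa10, Hoxc4, Hoxc5, Hoxc6, Hoxc8 and Hoxc9) and 3 lower (Hoxb5, Hoxb6 and Hoxd4), where 5.53% and 4.94% of all genes did so.

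**Figure D2:**
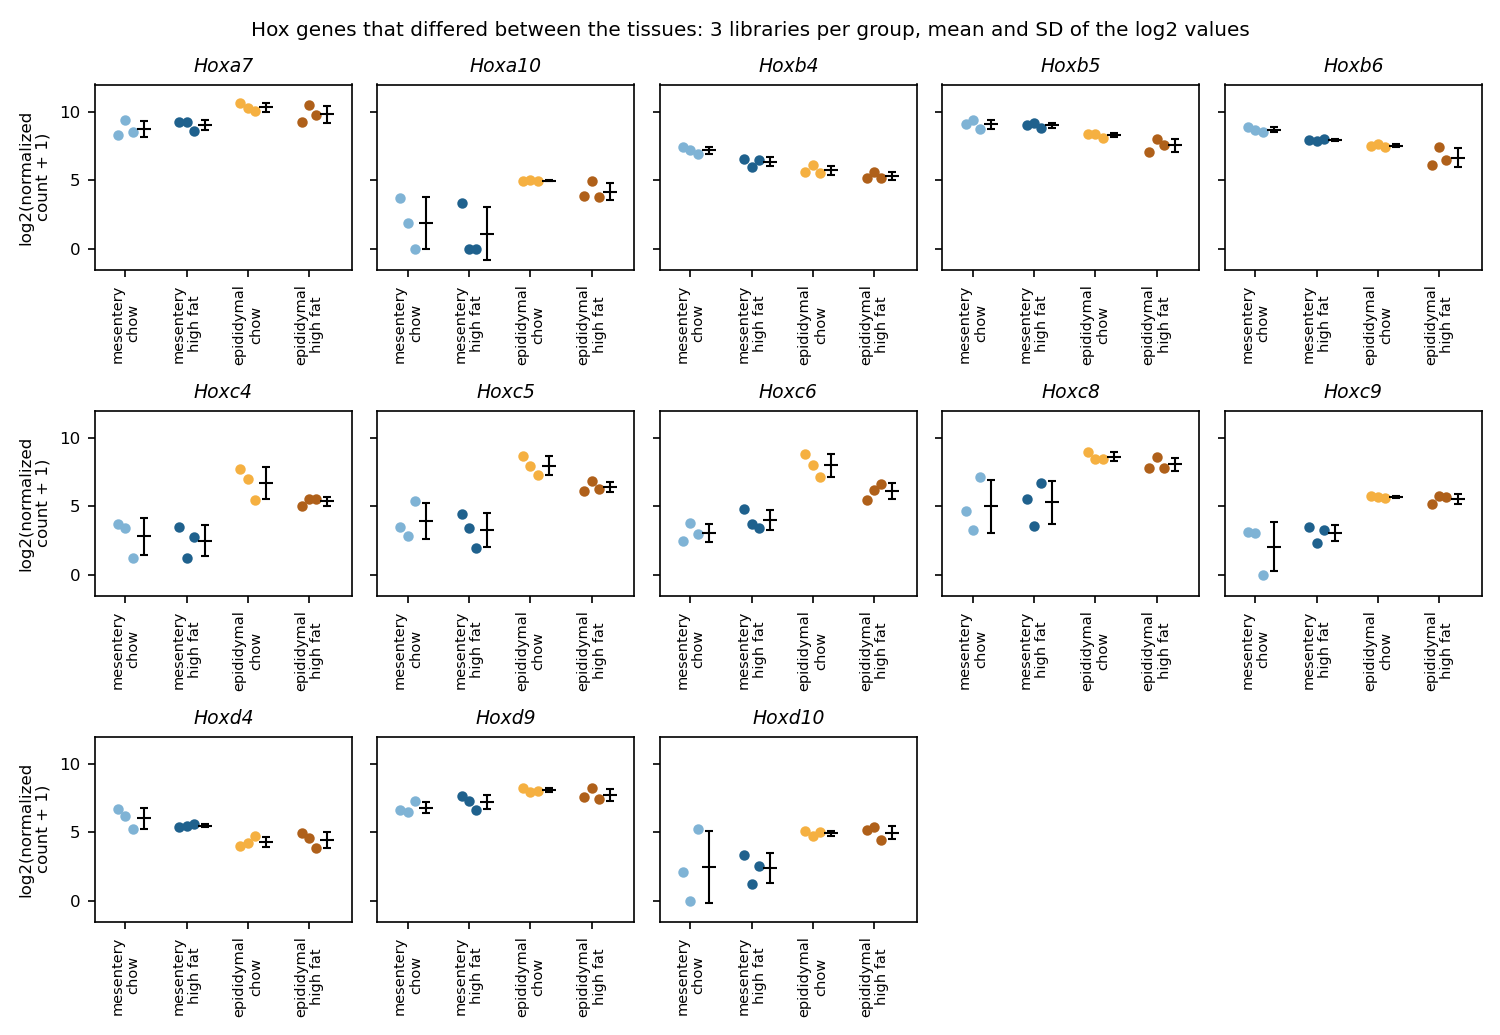
Log2(normalized count + 1) in each library (points, replicates A to C from left to right) with the mean and SD of the 3 log2 values (black), for the 13 Hox genes that differed between the tissues over both diets. The 5 Hoxc panels show every epididymal point above every mesenteric point, and Hoxb5, Hoxb6 and Hoxd4 the reverse.

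All 5 tested Hoxc genes were higher in epididymal fat over both diets, by 3.06 to 3.6 on the log2 scale. Hoxc6 (ENSMUSG00000001661), a gene of the thoracic trunk, had 4.55, 12.5 and 7.04 normalized counts in mesentery on chow, for replicates A, B and C in turn, and 454, 256 and 144 in epididymal fat. On HFD it had 27.1, 12.5 and 9.88 in mesentery and 43.8, 73.5 and 99.8 in epididymal fat. The groups were apart on both diets, and replicate A was the highest epididymal library on chow. The log2 difference was 4.93 (SE 0.629, limma adjusted p = 0.000242) on chow and 2.12 (SE 0.629, limma adjusted p = 0.0561) on HFD. Over both diets it was 3.52 (SE 0.445, limma adjusted p = 0.000106).

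Like Hoxc6, Hoxd4 and Hoxd11, Hoxc5 (ENSMUSG00000022485) is listed in the table as a processed transcript. Hoxb2 and Hoxb5 are listed as retained introns and Hoxa7 as nonsense-mediated decay. Hoxc5 was the member called higher on each diet. It had 10.2, 6.27 and 40.8 normalized counts in mesentery on chow and 406, 248 and 157 in epididymal fat, a log2 difference of 4.06 (SE 0.757, limma adjusted p = 0.00335). On HFD its values were 20.6, 9.70 and 2.96 in mesentery and 68.6, 116 and 77.1 in epididymal fat, a log2 difference of 3.15 (SE 0.757, limma adjusted p = 0.0222). No epididymal library was as low as the highest mesenteric one, replicate C on chow. The high fat call was lost in 5 of 18 alternative analyses, namely edgeR and the fits without mesenteric replicate B or C or epididymal replicate B or C, with a highest adjusted p of 0.0857. Over both diets Hoxc5 passed in all 23 alternatives run.

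Hoxc4 (ENSMUSG00000075394), the most anterior member of its cluster, had 12.5, 9.86 and 1.41 normalized counts in mesentery on chow and 10.3, 1.39 and 5.93 on HFD. In epididymal fat it had 212, 130.3 and 42.9 on chow and 31.5, 45.4 and 46.0 on HFD. In mesentery 1.41 and 1.39 each stand for 1 read, and 3 reads correspond to 2.12 to 4.22 normalized counts depending on the library. The epididymal values on chow spread over a wide range, and all exceeded every mesenteric value. On chow the difference was 3.92 (SE 0.921, limma adjusted p = 0.0134), with an adjusted p of 0.0890 without epididymal replicate A. On HFD it was 2.86 (SE 0.921, limma adjusted p = 0.0781).

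Hoxc8 (ENSMUSG00000001657) and Hoxc9 (ENSMUSG00000036139) extend the pattern to the lower trunk genes of the cluster. Hoxc8 had 23.9, 8.96 and 138 normalized counts in mesentery on chow and 45.8, 11.1 and 106 on HFD, and in epididymal fat 507, 348 and 349 on chow and 225, 385 and 220.1 on HFD. The log2 difference was 3.6 on chow (SE 0.854, limma adjusted p = 0.0142) and 2.77 on HFD (SE 0.854, limma adjusted p = 0.0654). Mesenteric replicate C stood above A and B on both diets for this gene. The letter does not match libraries across diets, since C has sample number 87 on chow and 53 on HFD. The chow call held in 14 of 18 alternatives, with an adjusted p of 0.0645 without epididymal replicate A. Hoxc9 had 7.97, 7.17 and 0 in mesentery on chow and 10.3, 4.16 and 8.89 on HFD. Its epididymal values, 52.5, 51.3 and 48.0 on chow and 34.9, 54.5 and 51 on HFD, lay close together. The difference was 3.62 on chow (SE 0.909, limma adjusted p = 0.0188) and 2.50 on HFD (SE 0.909, limma adjusted p = 0.120), and the chow call held in 13 of 17 alternatives with adjusted p up to 0.0859. The remaining Hoxc gene, Hoxc10, was not tested and had 0 to 19.8 normalized counts in mesentery and 1.42 to 14.6 in epididymal fat.

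Markers of other cells shared an order with some Hoxc values and not with others. On chow the epididymal fibroblast sum was 56292, 39485 and 18072 in replicates A, B and C, the same order from high to low as Hoxc4, Hoxc5 and Hoxc6. The lymphatic endothelial sum (37637, 34690 and 22667) and the smooth muscle and pericyte sum (22041, 21366 and 12034) had that order too. On HFD the epididymal fibroblast sum was 39730, 55910 and 52375, within the range on chow. The smooth muscle and pericyte sum (5866, 11682 and 9087) had the same order, as did Hoxc5 (68.6, 116 and 77.1 normalized counts) and Hoxc9 (34.9, 54.5 and 51). Hoxc4, Hoxc6 and Hoxc8 did not have it, and Hoxc6 had 43.8, 73.5 and 99.8 normalized counts. The lymphatic sum there was 18154, 16527 and 11830.5, the reverse order of Hoxc6. Of the 8 fibroblast markers 6 were higher in epididymal fat on chow and 7 on HFD, beside 7.32% and 4.91% of all genes. Between the diets in epididymal fat, 7 of these 8 markers had an estimate above 0 on HFD and 1 below. Their median log2 difference was 1.26 beside 0.10 over all genes, and 1 passed, beside 0.549% of all genes. In mesentery on chow, replicate C had the highest lymphatic endothelial sum, 13032 against 1332 and 1522, and also the highest Hoxc5 and Hoxc8, but the lowest Hoxc4 and Hoxc9. In mesentery on HFD the lymphatic sum was highest in replicate B, at 4759, where Hoxc8 was lowest. The mesenteric fibroblast sum was highest in replicate C, with 6538, 7949 and 10012 on chow and 4452, 4944 and 9501 on HFD. Hoxc8 was highest in replicate C on each diet, Hoxc5 on chow only, and Hoxc4, Hoxc6 and Hoxc9 on neither. The part of these cells in the Hox differences was not tested.

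The Hoxb cluster moved the other way in its centre. Over both diets Hoxb4, Hoxb5 and Hoxb6 were lower in epididymal fat, with log2 differences of -1.25, -1.13 and -1.22, and passed in all 23 alternatives run. The 12 pan-endothelial markers had a median log2 difference of -1.10 in the same comparison, with 8 lower and 1 higher. Lists of endothelial subtypes did not all go this way. Of 6 capillary markers 2 were higher and 0 lower (median 0.36), and of 5 venous markers 3 and 1 (median 1.18). Of 7 lymphatic markers 6 were higher and 1 lower (median 2.89), and of 7 arterial markers 1 and 2 (median -0.30). Beside these, 12.8% of all genes were higher and 9.05% lower. The part of endothelial content in the Hoxb differences was not tested. Hoxb5 (ENSMUSG00000038700), a central trunk gene, had 563, 669 and 424 normalized counts in mesentery on chow and 531, 592 and 458 on HFD. In epididymal fat it had 333, 339.7 and 276 on chow and 136, 254 and 189.7 on HFD. Every epididymal library was below every mesenteric one. The log2 difference was -0.78 (SE 0.251, limma adjusted p = 0.0584) on chow and -1.48 (SE 0.251, limma adjusted p = 0.00282) on HFD, the latter with an adjusted p of at most 0.0198 in 18 alternatives.

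Hoxb6 (ENSMUSG00000000690) was called lower on each diet. It had 474, 411 and 367 normalized counts in mesentery on chow against 186, 204 and 169.5 in epididymal fat, and 247, 230.1 and 263 against 67.5, 172 and 87.8 on HFD. The groups did not overlap, and mesentery on chow stood above the 3 other groups. The log2 difference was -1.16 (SE 0.301, limma adjusted p = 0.0231) on chow and -1.28 (SE 0.301, limma adjusted p = 0.0196) on HFD. Each call missed the threshold in several alternatives, 7 of 18 on chow and 9 of 18 on HFD, mostly where a library was left out, with adjusted p up to 0.0960 and 0.0926.

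Hoxb4 (ENSMUSG00000038692), the paralog of Hoxc4, had 169, 149.6 and 122 normalized counts in mesentery on chow and 94.5, 63.8 and 90.9 on HFD. Its epididymal values were 47, 69.5 and 44.9 on chow and 34.9, 48.7 and 34.7 on HFD. The tissues did not overlap within a diet, but the highest epididymal library on chow exceeded the lowest mesenteric library on HFD. The log2 difference was -1.45 (SE 0.371, limma adjusted p = 0.0212) on chow and -1.05 (SE 0.371, limma adjusted p = 0.108) on HFD. The chow call held in 13 of 18 alternatives, with adjusted p up to 0.0946. The other tested Hoxb genes did not pass in a tissue comparison. Hoxb7, the member with the highest mean per kilobase, had 522 to 930.0 normalized counts in the 6 mesenteric libraries and 305 to 840.3 in the epididymal ones. The log2 difference of Hoxb7 was 0.00 (SE 0.308) on chow and -0.48 (SE 0.308) on HFD. Hoxb9 had 87 to 265 and 96.3 to 258, Hoxb2 75.1 to 139 and 64.4 to 132 normalized counts, and the tissues overlapped in both genes. Hoxb8 was at 0 to 18.8 in mesentery and 12.7 to 33.0 in epididymal fat, with a log2 difference of 2.58 (SE 1.02, limma adjusted p = 0.126) on chow, and Hoxb3 was at 2.81 to 46.6 and 5.62 to 29.7.

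**Figure D3:**
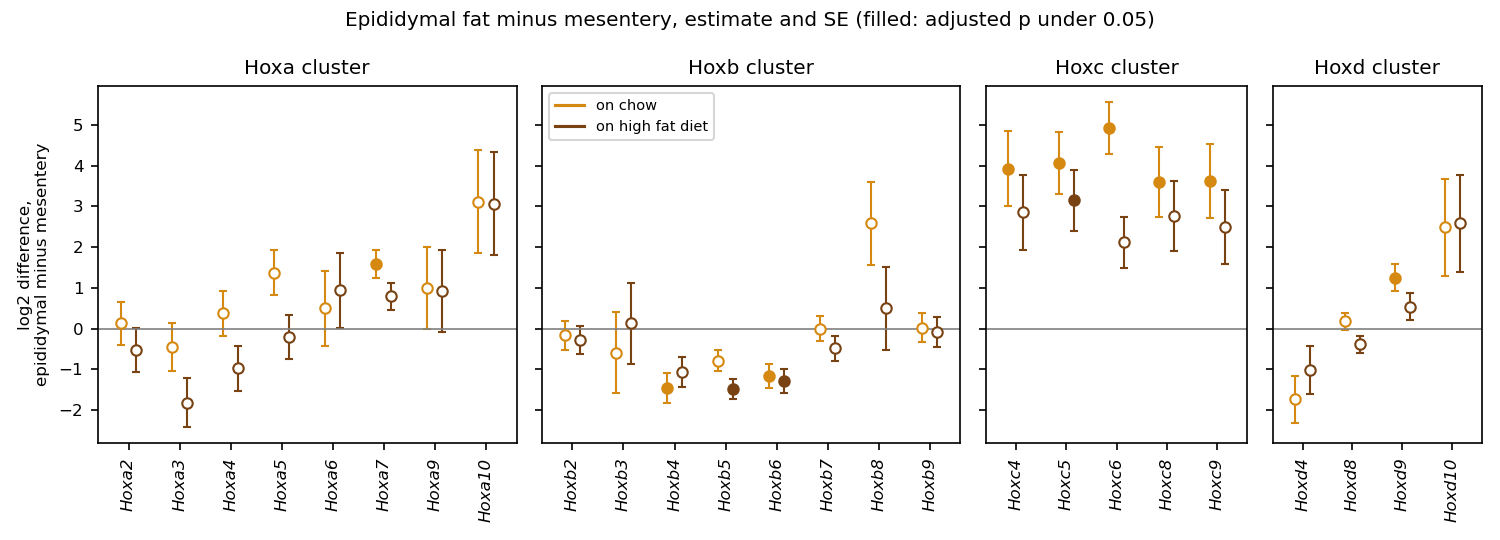
Log2 difference, epididymal fat minus mesentery, with its SE from limma, for the tested Hox genes reported here, by cluster and number, on chow (orange) and on HFD (brown); filled points passed an adjusted p of 0.05. Hoxc genes sit between 2.12 and 4.93 and Hoxb4, Hoxb5 and Hoxb6 between -1.48 and -0.78.

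In paralog groups 4, 5 and 6 the Hoxb gene was lower and the Hoxc gene higher in epididymal fat over both diets. The log2 ratio of Hoxc4 to Hoxb4, taken within each library on normalized counts plus 1, lay between -5.68 and -3.08 in the 6 mesenteric libraries and between -0.14 and 2.15 in the epididymal ones. For Hoxc5 to Hoxb5 it lay between -6.86 and -3.34 in mesentery and between -1.29 and 0.28 in epididymal fat. For Hoxc6 to Hoxb6 it lay between -6.42 and -3.14 in mesentery and between -1.21 and 1.29 in epididymal fat. For Hoxc9 to Hoxb9 it lay between -8.05 and -2.96 in mesentery and between -2.31 and -0.90 in epididymal fat. The lowest of these comes from chow replicate C, where Hoxc9 was at 0 and the added 1 sets the value, and the other 5 mesenteric ratios began at -5.66. None of these 4 ratios overlapped between the tissues. For groups 4, 5 and 6 the ratios restate the opposite differences given above and add no support to them. Hoxb9 differed by -0.03 over both diets, so its ratio mainly follows Hoxc9. The split was not particular to Hoxb genes. Ratios of Hoxc4 to Hoxa4 and Hoxd4, Hoxc8 to Hoxd8 and Hoxc9 to Hoxd9 did not overlap either. Those of Hoxc5 to Hoxa5, Hoxc6 to Hoxa6 and Hoxc9 to Hoxa9 did. The ratios are not corrected for gene length, so they show the change between tissues and not which paralog was more abundant. For Hoxc8 to Hoxb8 the ratio ran from -0.24 to 7.12 in mesentery and from 3.36 to 4.01 in epididymal fat, and overlapped. The highest mesenteric ratio was that of chow replicate C, where Hoxb8 was at 0 and the added 1 sets the value, and the other 5 mesenteric ratios ran from -0.24 to 2.43.

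**Figure D4:**
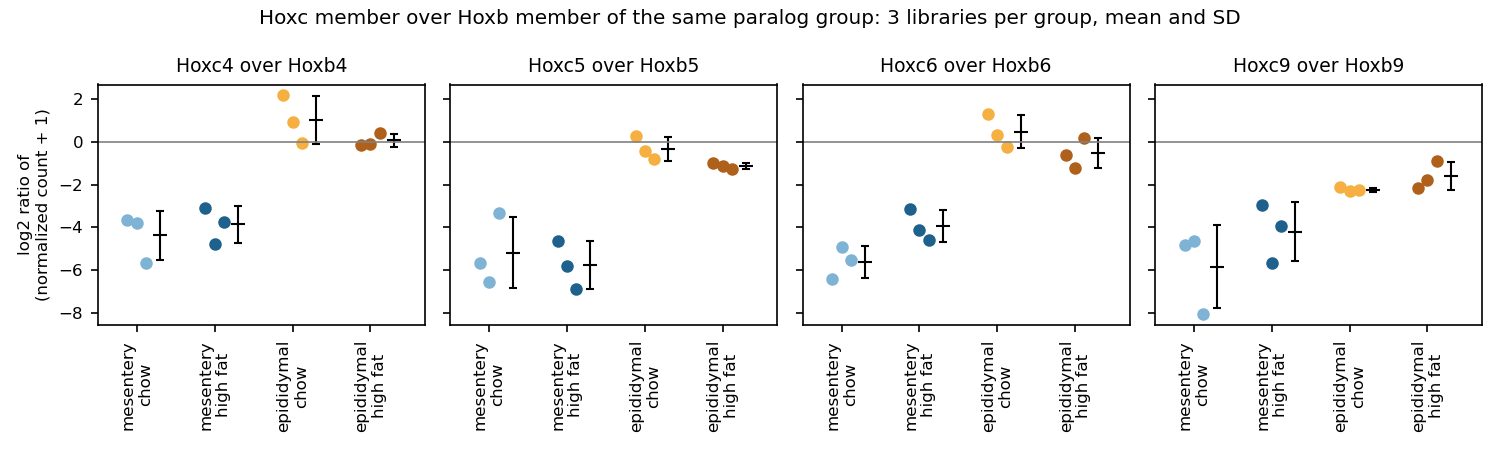
Log2 ratio of a Hoxc gene to the Hoxb gene of the same paralog group, each as normalized count plus 1, in each library (points) with mean and SD (black) of 3 libraries. Epididymal points of the group 4, 5, 6 and 9 ratios all lie above the mesenteric points, which do not exceed -2.96.

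Of the promoter windows in the RefSeq table (build GRCm38.p6, 250 bases before to 50 after a start), 19 belonged to 17 of the 30 members, among them Hoxb4 and Hoxc4. They are shown because these paralogs differed in opposite directions and both hold the retinoic acid receptor half-site AGGTCA on the minus strand, read as its complement in capitals. The Hoxb4 window lies at chr11:96318017-96318316 and the Hoxc4 window at chr15:103034145-103034444, both on the plus strand.
Hoxb4: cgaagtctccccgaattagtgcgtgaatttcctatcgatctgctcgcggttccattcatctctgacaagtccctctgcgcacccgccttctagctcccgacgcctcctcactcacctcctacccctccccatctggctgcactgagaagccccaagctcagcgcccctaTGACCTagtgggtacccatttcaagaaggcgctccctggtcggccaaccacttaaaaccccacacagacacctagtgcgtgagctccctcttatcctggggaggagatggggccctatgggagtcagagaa
Hoxc4: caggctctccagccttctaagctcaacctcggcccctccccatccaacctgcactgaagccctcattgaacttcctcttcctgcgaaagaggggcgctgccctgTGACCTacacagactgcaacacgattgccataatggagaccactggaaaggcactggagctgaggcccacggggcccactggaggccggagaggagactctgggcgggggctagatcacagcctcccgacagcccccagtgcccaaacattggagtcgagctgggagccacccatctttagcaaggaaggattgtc

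Searched on both strands, AGGTCA stood in 7 of the 19 Hox windows (Hoxa5, Hoxb4, Hoxc4, Hoxd3, Hoxd4, Hoxd8 and Hoxd10), beside 16.26% of all 32851 windows. The Meis site TGACAG stood in 2 (Hoxa2 and Hoxa3), beside 19.18%, and the Pbx-Hox site TGATNNAT in 4 windows (Hoxa2, Hoxb1, Hoxb8 and Hoxd11), beside 8.846%. The Cdx site TTTATNG stood in 2 (Hoxb8 and Hoxd4), beside 10.91%. The 2 windows shown hold none of the other motifs. A match describes letters in a window and not a bound site.

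In the Hoxa and Hoxd clusters, Hoxa7 and Hoxd9 were higher in epididymal fat on chow. Hoxa7 (ENSMUSG00000038236) was the most abundant Hoxa gene per kilobase in each group. It had 318, 666 and 372 normalized counts in mesentery on chow and 1605, 1248 and 1060.0 in epididymal fat, a log2 difference of 1.58 (SE 0.338, limma adjusted p = 0.0078) that passed in all 18 alternatives. On HFD it had 628, 600.1 and 383 in mesentery and 605, 1418 and 883 in epididymal fat, which overlapped, with a log2 difference of 0.80 (SE 0.338, limma adjusted p = 0.188). Hoxd9 (ENSMUSG00000043342) had 100.2, 89.6 and 155 normalized counts in mesentery on chow and 299, 244 and 261 in epididymal fat, a log2 difference of 1.25 (SE 0.331, limma adjusted p = 0.0245) that held in 14 of 18 alternatives, with adjusted p up to 0.1. On HFD its values overlapped, with 205, 154 and 99.8 in mesentery and 187, 305 and 171 in epididymal fat.

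Hoxa10, Hoxd10 and Hoxd4 passed only in the comparison over both diets and were named after their values were seen. Hoxa10 had 12.5, 2.69 and 0 normalized counts in mesentery on chow and 9.35, 0 and 0 on HFD, against 30.5, 31.3 and 30.6 and 13.5, 29.7 and 12.7 in epididymal fat. Its difference was 3.09 (SE 0.892, limma adjusted p = 0.0242) and passed in 17 of 22 alternatives. Hoxd10 was at 0 to 36.6 in mesentery and 20.5 to 40.5 in epididymal fat, with a difference of 2.54 (SE 0.841, limma adjusted p = 0.0464) that passed in 7 of 22. Hoxd4 was lower in epididymal fat, at 13.4 to 30.4 against 36.6 to 105 normalized counts, a difference of -1.38 (SE 0.412, limma adjusted p = 0.0289) that passed in 13 of 22. Hoxd8 did not pass the test, with 499.8 to 639.9 in mesentery and 325 to 691 in epididymal fat. Hoxa5 ran from 60.5 to 351 and from 141 to 756, with a log2 difference of 1.37 (SE 0.547, limma adjusted p = 0.128) on chow.

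Read along the body axis, 0 of the 5 tested anterior genes passed over both diets, on chow or on HFD. Of the 15 central genes 5 were higher and 4 lower over both diets, and of the 6 posterior genes 4 were higher (Hoxa10, Hoxc9, Hoxd9 and Hoxd10) and 0 lower, beside 12.8% of all genes higher and 9.05% lower. With so few genes a class, 0 of 5 is not read as a difference from that share. The median log2 difference over both diets was -0.22 for anterior, 0.58 for central and 1.75 for posterior genes, beside -0.01 over all genes tested. Whether these classes differ from one another was not tested. Among the anterior genes, Hoxa3 had the lowest estimate, -1.13 (SE 0.419, limma adjusted p = 0.0718), which passed in 4 of 23 alternatives, with 36.6 to 131 normalized counts in mesentery and 15.6 to 99.5 in epididymal fat. Hoxa2 overlapped between the tissues.

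The diet was compared within each tissue, and no member passed the test. In mesentery 0 of 26 passed with limma, where 0.0135% of all genes did. Unadjusted p was under 0.05 for 2 members, Hoxb4 at -0.82 (SE 0.371) and Hoxb6 at -0.75 (SE 0.301), whose high fat libraries all lay below the chow libraries. Among the 26 tested members these were the only ones without overlap in mesentery, 0 higher and 2 lower, where 4.47% and 5.14% of all genes did so. edgeR and DESeq2 on recovered reads also called 0. The median log2 difference of the members in mesentery was -0.07, beside 0.00 over all genes.

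In epididymal fat 0 of 26 passed with limma, where 0.549% of all genes did, and the estimates were mostly negative. Of 26 members 23 had an estimate below 0, with a median of -0.60 beside 0.10 over all genes. Unadjusted p was under 0.05 for 4 members: Hoxc6 at -1.89 (SE 0.629), Hoxb6 at -0.88 (SE 0.301), Hoxb5 at -0.75 (SE 0.251) and Hoxd8 at -0.64 (SE 0.215). Their adjusted p ran from 0.327 to 0.353 with limma. DESeq2 called 1 member, Hoxc6 (adjusted p = 0.0251), and edgeR called 0. Without epididymal high fat replicate B, limma called 1 member, Hoxb6 (adjusted p = 0.0438). Libraries did not overlap for 0 tested members higher and 8 lower (Hoxa4, Hoxa10, Hoxb5, Hoxb8, Hoxb9, Hoxc5, Hoxc6 and Hoxd8), where 6.93% and 6.57% of all genes were without overlap.

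The Hox level of the 3 epididymal libraries on HFD had the order of several marker sums, that of the endothelial markers among them. Summed over the 30 members it was 2784, 5185 and 3394 normalized counts in replicates A, B and C, and the pan-endothelial sum was 48278, 92652 and 65507. The fibroblast sum (39730, 55910 and 52375) and the smooth muscle and pericyte sum (5866, 11682 and 9087) had the same order. The macrophage sum was 56290, 28392 and 74191 in these libraries. On chow the Hox sum was 7264, 5666 and 4711, the pan-endothelial sum 93703, 105727 and 89450 and the macrophage sum 3592, 12577 and 1741. There the Hox sum had the order of the fibroblast sum (56292, 39485 and 18072) and not of the pan-endothelial sum. The lymphatic endothelial sum (37637, 34690 and 22667) and the smooth muscle and pericyte sum (22041, 21366 and 12034) had that order too. So did the sum of arterial endothelial markers (8833, 7459 and 6228), but not the capillary sum (248542, 297213 and 233616). Replicate B on HFD was the highest in both Hox genes and endothelial markers and the lowest in macrophage markers. In the diet comparison 3 of 6 adipocyte markers were lower and 1 of 8 fibroblast markers was higher in epididymal fat, where 0.549% of all genes passed. The part of the cell mixture in the diet differences was not tested.

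**Figure D5:**
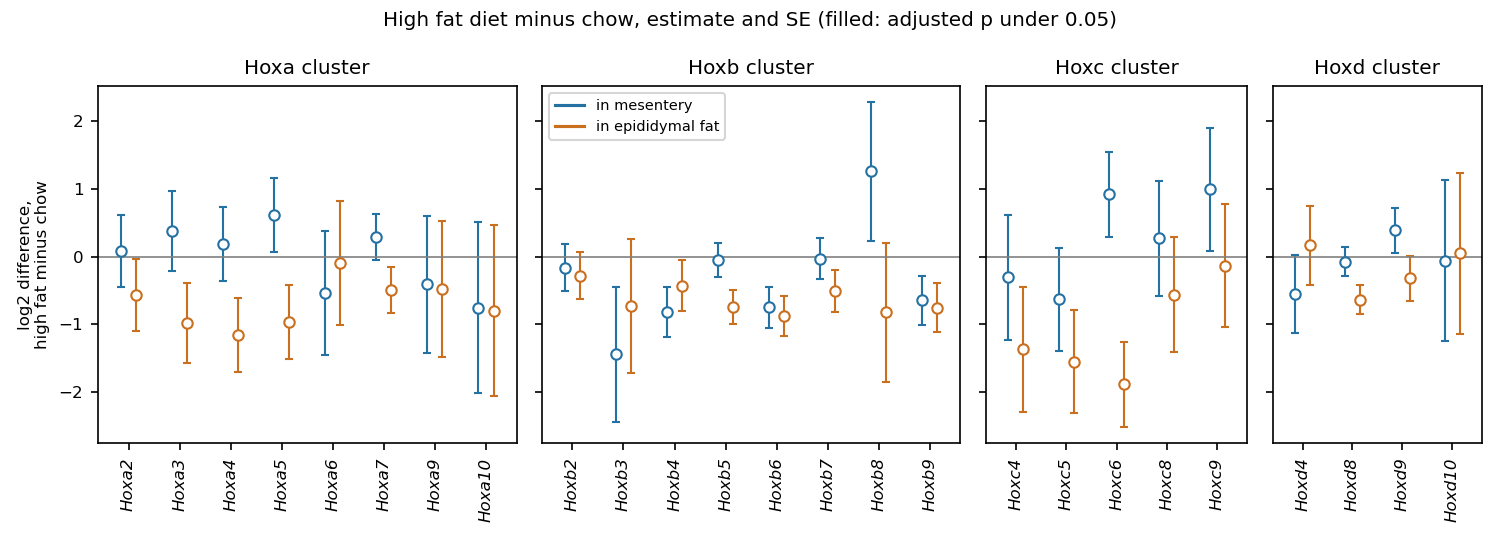
Log2 difference, high fat diet minus chow, with its SE from limma, for the tested Hox genes reported here, in mesentery (blue) and epididymal fat (orange); no point is filled, since none passed an adjusted p of 0.05. In epididymal fat 23 estimates are below 0, down to -1.89 for Hoxc6.

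Whether the diet changed the difference between the tissues was tested directly, and 0 of 26 members passed with limma, beside 0.0045% of all genes. edgeR and DESeq2 also called 0. Unadjusted p was under 0.05 for Hoxc6 alone, whose tissue difference was 2.81 smaller on the log2 scale on HFD than on chow (estimate -2.81, SE 0.889, limma adjusted p = 0.668). The 5 tested Hoxc genes all had estimates below 0, from -2.81 to -0.83. So the calls seen on chow but not on HFD, such as Hoxc4, Hoxc8 and Hoxc9, are not shown to differ between the diets.

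Among the TALE cofactors, which form complexes with Hox proteins on DNA, 10 of 11 listed genes were tested. On chow 1 was higher in epididymal fat (Meis3) and 2 were lower (Meis2 and Pknox1), and on HFD 0 were higher and 2 lower (Meis2 and Pknox1). Of all genes tested 7.32% were higher and 5.47% lower on chow, and 4.91% and 3.43% on HFD. Meis2 had 862, 1261 and 818 normalized counts in mesentery on chow and 176, 136 and 254 in epididymal fat, a log2 difference of -2.39 (SE 0.404, limma adjusted p = 0.00178). On HFD the values were 751, 782 and 858 against 243, 91.7 and 60.9, a difference of -2.83 (SE 0.404, limma adjusted p = 0.000804). Meis3 had 33.0, 8.96 and 60.5 against 183, 135 and 75.6 on chow, a difference of 2.17 (SE 0.597, limma adjusted p = 0.0293).

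Of the retinoic acid pathway, 14 of 18 listed genes were tested. On chow 4 were higher in epididymal fat and 1 lower, beside 7.32% and 5.47% of all genes. On HFD 3 were higher and 2 lower, beside 4.91% and 3.43% of all genes. All 3 enzymes that make retinoic acid were higher on each diet: Aldh1a3 by 4.58 and 4.67, Aldh1a1 by 3.88 and 1.61, and Aldh1a2 by 2.67 and 3.86 on the log2 scale on chow and HFD (limma adjusted p from 2.75e-05 to 0.0290). Aldh1a1 had 134, 98.6 and 151 normalized counts in mesentery on chow and 3300.3, 1994 and 989.6 in epididymal fat. The receptor Rarg was lower on both diets, with log2 differences of -1.48 and -1.71. Cyp26b1, which degrades retinoic acid, was lower on HFD, with a log2 difference of -3.41 (SE 0.874, limma adjusted p = 0.0294). Its mesenteric values on chow spread from 208 to 2955. On chow the epididymal order of Aldh1a1 and Aldh1a3 over replicates A, B and C was also that of the fibroblast sum, whose part in these differences was not tested.

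Chromatin regulators of Hox clusters, and the lists after them, are read beside the share of all genes that passed. This was 12.8% on chow (7.32% higher and 5.47% lower) and 8.34% on HFD (4.91% higher and 3.43% lower). Of 20 Polycomb group genes, on chow 1 was higher in epididymal fat (Rnf2, by 1.08) and 1 lower (Suz12, log2 difference -1.31), and on HFD 0 were higher and 2 lower (Bmi1 and Phc2). Of 10 Trithorax group and H3K27 demethylase genes, 0 were higher and 2 lower on chow (Kmt2a, log2 difference -1.15, and Ash1l), and Kmt2a alone was lower on HFD, with a log2 difference of -0.97. Over both diets 0 of these 10 were higher and 4 lower (Kmt2a, Kdm6a, Ash1l and Rbbp5), beside 9.05% of all genes lower. Of 20 listed noncoding genes at the Hox clusters 7 were in the table and 6 were tested. Hoxb3os, which lies opposite exons of Hoxb2 and Hoxb3, was higher in epididymal fat on chow, with 13.7, 14.3 and 2.82 against 71.3, 87.7 and 81.7 normalized counts (log2 difference 3.09, SE 0.628, limma adjusted p = 0.0058). On HFD 0 of 6 passed. Other regional transcription factors (8 tested) were lower in 3 cases on each diet. One of them, Nkx2-3, a gut and spleen vessel factor, had 561 to 1187 normalized counts in the mesenteric libraries and 0 in all 6 epididymal ones. None of these gene lists had a member that passed in a diet comparison or in the difference of the diet effects.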

How the data were processed

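RNA-seq of sorted cells was deposited as 1 table of normalized counts, a signal the authors made by dividing each library's reads by a size factor. Per the submitters' processing notes, STAR 2.7.9a, featureCounts, Subread and DESeq2 1.34.0 were used with build mm39. The annotation, strand setting and filters are not given in the sources used here. Dividing by the step of each column returned whole reads for 100% of values (tolerance 0.001 read).

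Values were tested as log2(normalized count + 1) with limma 3.58.1 in R 4.3.3 (lmFit, eBayes with trend), in 1 fit over 4 groups of 3 libraries, for genes with a mean of at least 10. Benjamini-Hochberg adjustment covered all tested genes, with a threshold of 0.05. edgeR 4.0.16 and DESeq2 1.42.0 on recovered reads were alternatives, with other pseudocounts, filters, scalings and left-out libraries. The code was tested on simulated data. Library values are given for members past the threshold in any of 5 contrasts and for Hoxa10. Members with a group mean of at least 100 that did not pass are given as ranges over libraries. For each other list up to 4 genes with the largest changes are named. The member rule uses symbols alone, but this gene family and the other lists were chosen with earlier results of these data known. Values of 1 member and some sequences are not reported here.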

Additional observations from a re-analysis of the deposited data

How the results depend on the processing

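No member that was called changed sign in any alternative run. The tissue difference on chow called 9 members, 3 to 12 when 1 library was left out (3 without epididymal replicate A, 5 without mesenteric replicate A, 5 without epididymal replicate B) and 5 with edgeR. On the high fat diet it called 3, against 1 to 2 with a library left out, 1 with edgeR, 9 with DESeq2 and 7 in the libraries numbered 50 to 53. The diet in epididymal fat called 0, against 0 to 1 with a library left out (1 without high fat replicate B) and 1 with DESeq2. Over both diets 13 were called, 10 to 14 with a library left out, and 8 with a mean of at least 50, where fewer genes are tested. The diet in mesentery and the difference of the diet effects called 0 in each alternative run. Except where a construction is named, the cause was not tested.

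Rescaling columns to the same total moved the all-gene median by -0.17 in the tissue difference on the high fat diet and by 0.12, -0.13 and -0.26 in the diet in mesentery, the diet in epididymal fat and their difference. The calls over all genes on chow then split into 1935 higher and 940 lower, against 1627 and 1216, and on the high fat diet into 694 and 1267, against 1092 and 762. The members split into 7 higher and 2 lower on chow and 1 and 3 on the high fat diet.

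Mesenteric and epididymal libraries of the same letter and diet share a number whose meaning the labels do not give. With that number as a replicate block, 11 members were called on chow, 4 on the high fat diet (Hoxa3 entered), 13 over both diets (Hoxa3 entered and Hoxd4, at an adjusted p of 0.0589, left) and 0 for the diet in epididymal fat. Libraries correlated best with their own number in 5 of 6 cases on chow and 2 of 6 on the high fat diet. Numbers 87 and 88 fell on replicate C on chow and replicate A on the high fat diet, the others on 50 to 53. With that range as a covariate in limma, its coefficient passed for 1022 genes, 4.6% of those tested. It passed for 0 of 26 members, with unadjusted p under 0.05 for 4. The depth leaves values under 2.12 to 4.22 normalized counts, which is 3 reads, without a usable fold.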
